A study of Mus musculus with 2 samples.

Results

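The genes described here encode subunits of the voltage-gated calcium channels, which open when a neuron depolarizes and let calcium into the cell. The set was given by name and holds 10 genes, the pore subunit genes Cacna1a, Cacna1b, Cacna1c, Cacna1d, Cacna1e, Cacna1g, Cacna1h and Cacna1i and the alpha2-delta genes Cacna2d1 and Cacna2d3. All 10 were found by gene identifier among the 47643 genes in the counts. Messenger RNA was sequenced from wild-type cortical progenitors of male E14 mouse embryos that had received either non-targeting siRNA (siCtl) or siRNAs against Phf6 (siPhf6) and had then spent 5 days in culture. Phf6 encodes a plant homeodomain zinc-finger protein that regulates transcription. The study's methods describe several independent samples per arm, and 1 library of read counts per arm was analysed here. The sources used here do not say whether a library comes from 1 culture or from a pool. No difference below therefore has a replicate check, and each one compares these 2 libraries rather than the conditions.

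Each channel is built around a pore protein that also carries the voltage sensor. High-voltage-activated pores (L, P/Q, N and R type) are joined by a beta subunit inside the cell and an alpha2-delta subunit outside it, which help bring the pore to the membrane. T-type pores open at weaker depolarization and form channels without them. In neurons, P/Q- and N-type channels supply the calcium for transmitter release, L-type channels signal to the nucleus, R-type channels act in dendrites and terminals, and T-type channels support burst firing.

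The libraries held 12155311 (siCtl) and 10561757 (siPhf6) reads in genes. Phf6 dropped from 1420 reads (siCtl) to 310 (siPhf6), which left it at 25.2% of its siCtl level. Every one of the 12 markers of postmitotic neurons had enough reads to be compared, whereas 6 of 11 markers of radial glia, 3 of 6 of intermediate progenitors and 2 of 8 of dividing cells did. Transcripts listed as markers of neurons and of progenitors were thus both present in the libraries labelled as progenitors, but at unlike levels. The neuron markers summed to 43131 (siCtl) and 38502 (siPhf6) reads. Those of radial glia summed to 4817 and 5656, of intermediate progenitors to 2755 and 3146 and of dividing cells to 418 and 729 reads.

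The pore classes differ in a known stretch of their transcripts. The loop after the first repeat of a high-voltage pore holds the alpha interaction domain, the stretch that grips the beta subunit. A search for its residue pattern in the GENCODE M21 transcripts found it in all 5 high-voltage members and in none of the transcripts of Cacna1g, Cacna1h or Cacna1i. The pattern was chosen as that of high-voltage pores, so this outcome is no test of the split. It was found in 5 of 9 coding transcripts of Cacna1b and 3 of 4 of Cacna1e. The 54 bases that code for it are shown for each of the 5 genes because they set apart the pores that depend on the beta genes described further down. Capitals mark the codon of the tryptophan that sits in the groove of the beta subunit.
Cacna1c (L type, chromosome 6): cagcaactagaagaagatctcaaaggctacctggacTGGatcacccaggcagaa
Cacna1d (L type, chromosome 14): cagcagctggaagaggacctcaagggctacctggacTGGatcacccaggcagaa
Cacna1a (P/Q type, chromosome 8): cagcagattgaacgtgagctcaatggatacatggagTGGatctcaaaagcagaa
Cacna1b (N type, chromosome 2): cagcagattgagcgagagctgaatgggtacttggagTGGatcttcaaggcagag
Cacna1e (R type, chromosome 1): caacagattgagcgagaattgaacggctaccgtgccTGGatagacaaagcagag
The L-type pair was identical at 49 of 54 bases and the pair of Cacna1a and Cacna1b at 45. Cacna1e shared 40 with Cacna1b, 36 with Cacna1a and 34 with each L-type gene. Of all runs of 50 bases in the transcripts of the called genes Cacna1g, Cacna1e and Cacna2d3, 0.182%, 0.734% and 0.24% also occurred in the transcripts of another gene. The shared runs of Cacna1e were spread over 1052 other genes, those of Cacna1g lay in 1 and those of Cacna2d3 in 4.

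Of the 10 channel genes, the T-type gene Cacna1g and the R-type gene Cacna1e were lower in siPhf6 and the alpha2-delta gene Cacna2d3 was higher, while 7 genes were not called. A gene was compared if it had at least 150 reads in at least 1 library, the filter of the study's methods, which 10130 genes and all 10 channel genes passed. It was called higher or lower at a false discovery rate under 0.01 when its reads were compared by a two-sided exact binomial test, adjusted over the 10130 genes (Benjamini-Hochberg), with an absolute log2 ratio of siPhf6 to siCtl over 0.25. Ratios were taken after adding 1 read and scaling to the total of gene reads. By this rule 25.9% of all compared genes were called, 13.4% higher and 12.4% lower, so 3 of 10 is close to the share among all genes. The median log2 ratio of the 10 genes was -0.02, beside 0.01 for all compared genes. The 95% intervals of log2 ratios given below are exact (Clopper-Pearson). They hold counting error alone, and without molecular identifiers the reads need not be independent molecules.

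**Figure D1:**
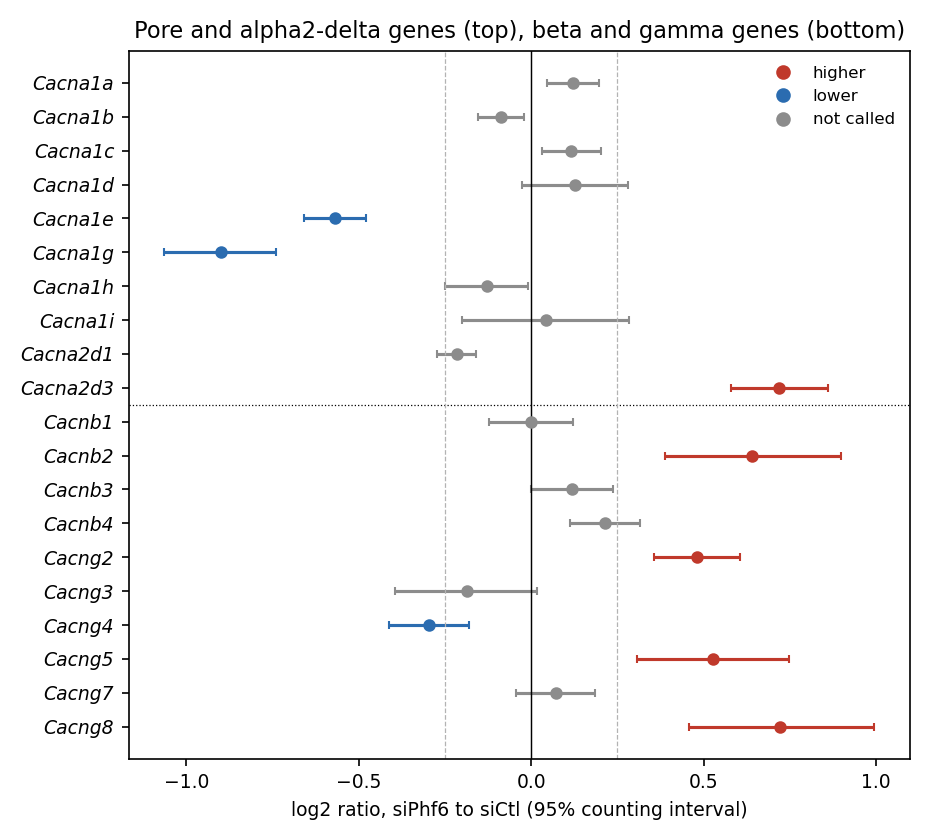
The horizontal axis is the log2 ratio of siPhf6 to siCtl for the 10 pore and alpha2-delta genes above the dotted line and the 10 compared beta and gamma genes below it. Points are single genes with 95% counting intervals, dashed lines mark 0.25 in each direction, and Cacna1g at -0.90 and Cacna1e at -0.57 lie to the left while Cacna2d3 at 0.72 lies to the right.

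Counting error understates the scatter between libraries. Among compared genes whose reads summed to over 4000, the log2 ratios had a robust SD of 0.17, where counting gives 0.04. When a coefficient of variation of 0.1 between cultures was assumed (edgeR's exact test), 2.48% of compared genes were called, and of the channel genes only Cacna1g was among them, so the calls of Cacna1e and Cacna2d3 were lost.

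The T-type genes did not move together. Cacna1g, on chromosome 11 of GRCm38 (94408391 to 94474198, minus strand), was covered by 991 reads in siCtl and by 461 in siPhf6, or 81.5 and 43.7 RPM (reads per 1000000 gene reads). The siPhf6 library held it at 53.6% of the siCtl level, a log2 ratio of -0.90 (-1.06 to -0.74). Only 73 of the 10130 compared genes, itself included, had a ratio as low or lower.

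Cacna1h, the T-type gene with the highest level per length in both libraries, had 1263 and 1004 reads, or 104 and 95.1 RPM. Its log2 ratio was -0.13 (-0.25 to -0.01) and it was not called. Cacna1i had 304 and 272 reads, or 25.01 and 25.7 RPM, and a ratio of 0.04 (-0.20 to 0.28) that was not called. A trend on GC content, once subtracted, turned this last ratio to -0.01.

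Ratios of 1 gene to another within a library need no scaling between libraries. Cacna1g had 0.785 reads for each read of Cacna1h in siCtl and 0.459 in siPhf6, a log2 change of -0.77 (95% Wald interval -0.97 to -0.57, counting error alone). Against Cacna1i its reads went from 3.26 to 1.69 per read (-0.94, -1.23 to -0.66). Cacna1g was therefore lower relative to both other T-type genes, by more than counting error. Together, the 3 T-type genes took 2558 (siCtl) and 1737 (siPhf6) reads, a log2 ratio of -0.36 (-0.44 to -0.27).

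Among the high-voltage pores only Cacna1e was called. This R-type gene, on chromosome 1 (154390731 to 154884501, minus strand), took 2717 (siCtl) and 1593 (siPhf6) reads, or 224 and 151 RPM. The siPhf6 level was 67.5% of that in siCtl, a log2 ratio of -0.57 (-0.66 to -0.48). A ratio as low or lower was found in 356 of the compared genes.

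The genes of the channels that trigger transmitter release differed little. Cacna1a (P/Q type) had 2884 and 2727 reads, or 237 and 258 RPM, a log2 ratio of 0.12 (0.05 to 0.20). Cacna1b (N type) had 4016 and 3285 reads, or 330 and 311 RPM, a ratio of -0.09 (-0.15 to -0.02). Neither was called. Their intervals reach at most 0.20 in either direction, but they leave out the scatter between libraries and so do not bound the difference. Relative to Cacna1a, Cacna1e went from 0.942 to 0.584 reads per read (-0.69, -0.81 to -0.57), and relative to Cacna1b from 0.676 to 0.485 (-0.48, -0.59 to -0.37).

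Both L-type genes lay slightly above their siCtl levels without being called. Cacna1c had 2285 and 2152 reads, or 188 and 204 RPM (log2 ratio 0.12, 0.03 to 0.20). Cacna1d had 725 and 688 reads, or 59.6 and 65.1 RPM (0.13, -0.03 to 0.28). The reads of Cacna1d per read of Cacna1c were 0.317 in siCtl and 0.32 in siPhf6, a log2 change of 0.01 (-0.16 to 0.18).

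The alpha2-delta genes differed in opposite directions. Cacna2d3, on chromosome 14 (28904943 to 29721864, minus strand), took 705 (siCtl) and 1009 (siPhf6) reads, or 58.0 and 95.5 RPM. It was higher in siPhf6 at 165% of the siCtl level, a log2 ratio of 0.72 (0.58 to 0.86), and 276 of the compared genes had a ratio as high or higher. Cacna2d1, whose product binds the drug gabapentin, was the channel gene with the most reads. It had 5811 and 4347 reads, or 478 and 412 RPM, and a ratio of -0.22 (-0.27 to -0.16), short of the limit of 0.25. Its interval runs past that limit, so its missing call does not show an equal level.

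For each read of Cacna2d1 there were 0.121 reads of Cacna2d3 in siCtl and 0.232 in siPhf6, a log2 change of 0.94 (0.79 to 1.09). Summed over both genes, alpha2-delta reads were 6516 and 5356, a ratio of -0.08 (-0.13 to -0.03). The sum moved far less than the balance of its parts. Cacna2d1 supplied 5811 of the 6516 reads in siCtl and 4347 of the 5356 in siPhf6, so the sum mostly follows that gene. Whether 1 gene makes up for the other was not tested. Cacna2d2 (99 and 84 reads) and Cacna2d4 (10 and 5 reads), the remaining alpha2-delta genes, had too few reads to be compared.

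**Figure D2:**
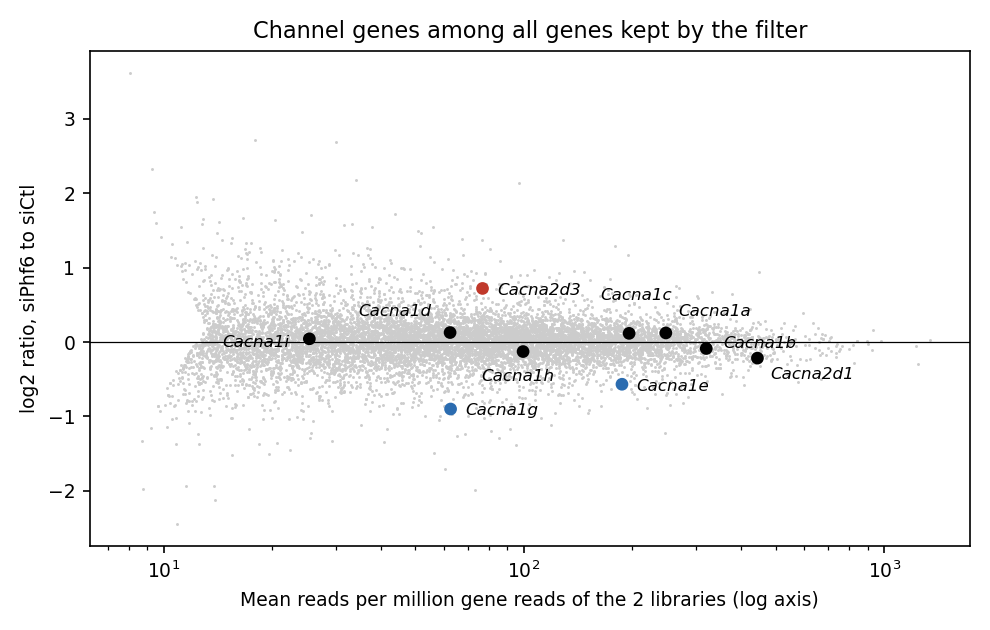
Each grey point is 1 of the 10130 compared genes, placed by its mean RPM in both libraries (horizontal, log axis) and its log2 ratio of siPhf6 to siCtl (vertical). The channel genes are drawn large, with Cacna1g and Cacna1e in blue (lower), Cacna2d3 in red (higher) and the 7 others in black near 0.

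Levels of different genes were compared as RPM per kilobase of merged exons (RPKM), with exact Poisson 95% intervals of the reads. In siCtl the order ran from Cacna2d1 (38.5 RPKM, 37.5 to 39.5) through Cacna1b (33.2), Cacna1a (20.8), Cacna1h (10.6), Cacna1c (8.87), Cacna1e (8.86), Cacna1g (8.04), Cacna2d3 (6.65) and Cacna1d (4.73) to Cacna1i (2.54, 2.26 to 2.84). Neighbours were compared by the ratio of their levels, with a Wald 95% interval from the reads of both genes that covers counting error only. Cacna1c and Cacna1e did not differ beyond it (ratio 1.001, 0.947 to 1.06), Cacna1e lay 1.10 times above Cacna1g (1.02 to 1.19), and for each other pair of neighbours the interval also lay above 1.

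In siPhf6 the ends of the order were the same and its middle was not. Cacna2d1 (33.2 RPKM, 32.2 to 34.2) lay 1.06 times (1.01 to 1.11) above Cacna1b (31.3 RPKM, 30.2 to 32.4). Cacna2d3 came next after Cacna1a at 10.96 RPKM, 1.13 times (1.03 to 1.23) above Cacna1h at 9.74. Cacna1h and Cacna1c (9.62 RPKM) did not differ beyond counting error (ratio 1.01, 0.940 to 1.09), and for the remaining neighbours the interval lay above 1. Cacna1e (5.98 RPKM) lay below them, followed by Cacna1d (5.16), Cacna1g (4.31) and Cacna1i (2.61). Beside these, the median of all compared genes was 13.6 RPKM in siCtl and 13.5 in siPhf6. The order depends on the length used. With the longest transcript in place of merged exons, Cacna2d3 came next after Cacna1a in siCtl as well, at 15.7 RPKM.

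**Figure D3:**
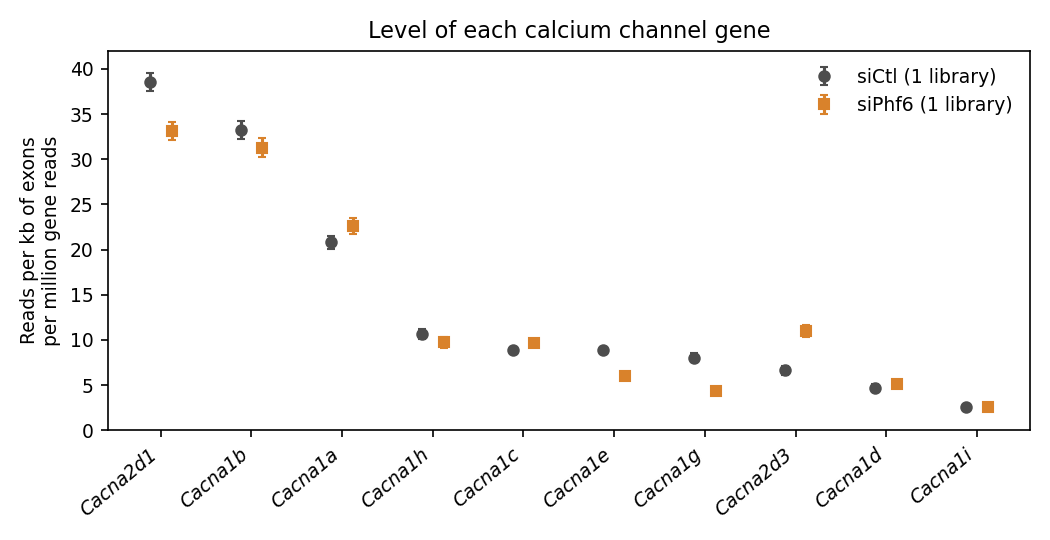
RPKM (vertical axis, from 0) for the 10 channel genes, ordered by siCtl, in the siCtl (grey circles) and siPhf6 (orange squares) library. Bars are Poisson 95% intervals; the levels of Cacna1e (8.86 and 5.98) and Cacna1g (8.04 and 4.31) separate downward and that of Cacna2d3 (6.65 and 10.96) upward.

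Summed over the 8 pore genes, the level was 97.7 RPKM in siCtl and 91.3 in siPhf6. N-type transcripts made up 34.0% of it in siCtl and 34.3% in siPhf6. The P/Q-type share was 21.3% and 24.8%, and the L-type share 13.9% and 16.2%. T-type transcripts made up 21.7% and 18.2%, and R-type transcripts 9.07% and 6.55%. The P/Q- and L-type shares were thus larger in siPhf6 and the T- and R-type shares smaller, while the N-type share differed little. These shares have no interval and depend on the length used for each gene.

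The channel genes are long. Their median span in the annotation was 346 kb against 28.3 kb for all compared genes, from 59.5 kb for Cacna1h to 817 kb for Cacna2d3, and 8 of the 10 exceeded 100 kb. Of the 1722 compared genes that span over 100 kb, 16.3% were called higher and 19.4% lower, with a median log2 ratio of -0.03. Cacna1g, the lowest of the channel genes, spans only 65.8 kb, and after a trend on span was subtracted the same 3 genes were called. In exons, Cacna1a, Cacna1d and Cacna1h overlap genes on the opposite strand by 3.81%, 4.67% and 1.62% of their bases. The kit does not mark strand, but those partners (Gm16183, Chdh and Tpsg1) had at most 21 reads. The 3 called genes share no exon bases with another gene.

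Windows at the RefSeq starts of Cacna1e and Cacna2d3 are shown because these genes were called in opposite directions and 1 start each was given. The Cacna1e start lies well inside the GENCODE span, which reaches 154884501 on the minus strand, and an ATG follows almost directly on it. The Cacna1e window may therefore hold transcribed bases rather than a promoter. Each window covers 250 bases before the start and 50 after it, on GRCm38.p6 and the minus strand, and capitals mark GC boxes (GGGCGG on either strand, overlaps included).
Cacna1e, chr1:154725871-154726170: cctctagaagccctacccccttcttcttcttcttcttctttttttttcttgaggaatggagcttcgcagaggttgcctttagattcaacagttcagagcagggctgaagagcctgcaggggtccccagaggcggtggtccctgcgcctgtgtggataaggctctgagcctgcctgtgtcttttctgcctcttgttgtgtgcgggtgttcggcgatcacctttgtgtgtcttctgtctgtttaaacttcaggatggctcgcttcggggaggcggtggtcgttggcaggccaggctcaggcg
Cacna2d3, chr14:29721815-29722114: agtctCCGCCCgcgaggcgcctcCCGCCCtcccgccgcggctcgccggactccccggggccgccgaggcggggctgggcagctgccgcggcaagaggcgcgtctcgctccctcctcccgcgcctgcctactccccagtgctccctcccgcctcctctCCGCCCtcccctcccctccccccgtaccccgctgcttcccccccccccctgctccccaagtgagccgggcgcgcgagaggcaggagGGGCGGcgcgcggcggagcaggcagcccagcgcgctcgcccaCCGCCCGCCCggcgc
The Cacna1e window holds no GC box and 11 CpG dinucleotides at 55.3% GC, and the Cacna2d3 window 6 GC boxes and 41 CpG at 81.3% GC. Over 32851 promoter windows of this length, 35.7% hold a GC box and the median is 7 CpG. Windows were found for 7 channel genes, 10 in all, of which 5 hold a GC box. None of the 10 holds the cAMP response element TGACGTCA, which 1.79% of all windows hold. These are matches of letters only, and the windows of Cacna1e and Cacna2d3 need not be alike in kind.

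Among the beta genes, whose products bind the stretch printed above, only Cacnb2 was called. This is 1 of 4, close to the 25.9% called among all compared genes. Cacnb2 took 224 (siCtl) and 304 (siPhf6) reads, or 18.4 and 28.8 RPM, and was higher with a log2 ratio of 0.64 (0.39 to 0.90). Cacnb1 (1165 and 1012 reads, ratio 0.00, -0.12 to 0.12), Cacnb3 (1171 and 1105 reads, 0.12, 0.00 to 0.24) and Cacnb4 (1592 and 1604 reads, 0.21, 0.11 to 0.31) were not called. Cacnb2 had the lowest level of the 4 in both libraries, at 1.39 and 2.18 RPKM, where the others lay between 14.6 and 26.1. With the assumed variation of 0.1 the call of Cacnb2 was lost.

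The gamma genes are named after the muscle calcium channel, but most of those found in brain encode auxiliary subunits of AMPA-type glutamate receptors. Of 8 gamma genes, 6 were compared, 3 were higher and 1 was lower, with a median log2 ratio of 0.28. Over all compared genes 25.9% were called and the median was 0.01. Cacng8 (197 and 283 reads, 0.72, 0.46 to 0.995), Cacng5 (309 and 387 reads, 0.53, 0.31 to 0.75) and Cacng2 (944 and 1145 reads, 0.48, 0.36 to 0.61) were higher and Cacng4 (1438 and 1018 reads, -0.30, -0.41 to -0.18) was lower. Cacng3 (451 and 344 reads, -0.19, -0.39 to 0.02) and Cacng7 (1309 and 1195 reads, 0.07, -0.04 to 0.19) were not called. Cacng1 (6 and 4 reads) and Cacng6 (2 and 3 reads) had too few reads, as had the pore genes of retina and skeletal muscle, Cacna1f (23 and 20 reads) and Cacna1s (1 and 4 reads). With the assumed variation, none of the 4 gamma calls was kept.

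Genes that control the channels or handle calcium after it enters were called in both directions, as were compared genes in general (13.4% higher and 12.4% lower). The counts below are to be read beside those shares. Of 11 compared channel inhibitors and regulators, 1 was lower and 1 higher, with a median log2 ratio of 0.02. Rem2, a small GTPase that inhibits high-voltage channels, took 797 (siCtl) and 384 (siPhf6) reads (-0.85, -1.03 to -0.67), while Gem, a GTPase of the same family, had 198 and 257 (0.58, 0.31 to 0.85). Of 6 genes of proteins at the release site, Rimbp2, which links channels to the release machinery, was higher (1586 and 2235 reads, 0.70, 0.60 to 0.79) and the scaffold gene Erc2 was lower (2690 and 1865 reads, -0.33, -0.41 to -0.24).

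Of 8 compared genes of calcium stores, 3 were higher, among them the store sensors Stim1 (0.45, 0.29 to 0.62) and Stim2 (0.33, 0.18 to 0.47), and Itpr1, a release channel, was lower (-0.49, -0.60 to -0.38). Of 8 pumps and exchangers, the exchanger gene Slc8a3 was higher (0.50, 0.27 to 0.74) and the pump gene Atp2b4 lower (-0.64, -0.81 to -0.48). Of 14 compared genes of calcium-dependent kinases, phosphatases and their factors, 5 were higher and 2 lower, led by the transcription factor Nfatc3 (0.58, 0.44 to 0.73) and the kinases Camkk1 (0.50, 0.35 to 0.66), Camkk2 (-0.49, -0.62 to -0.36) and Camk2g (-0.28, -0.38 to -0.19). Of 4 compared calcium buffers, Calb1, which encodes calbindin, was higher (247 and 494 reads, 1.20, 0.98 to 1.43). With the assumed variation of 0.1, Rem2 and Calb1 kept their calls and the other genes of these lists did not.

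**Figure D4:**
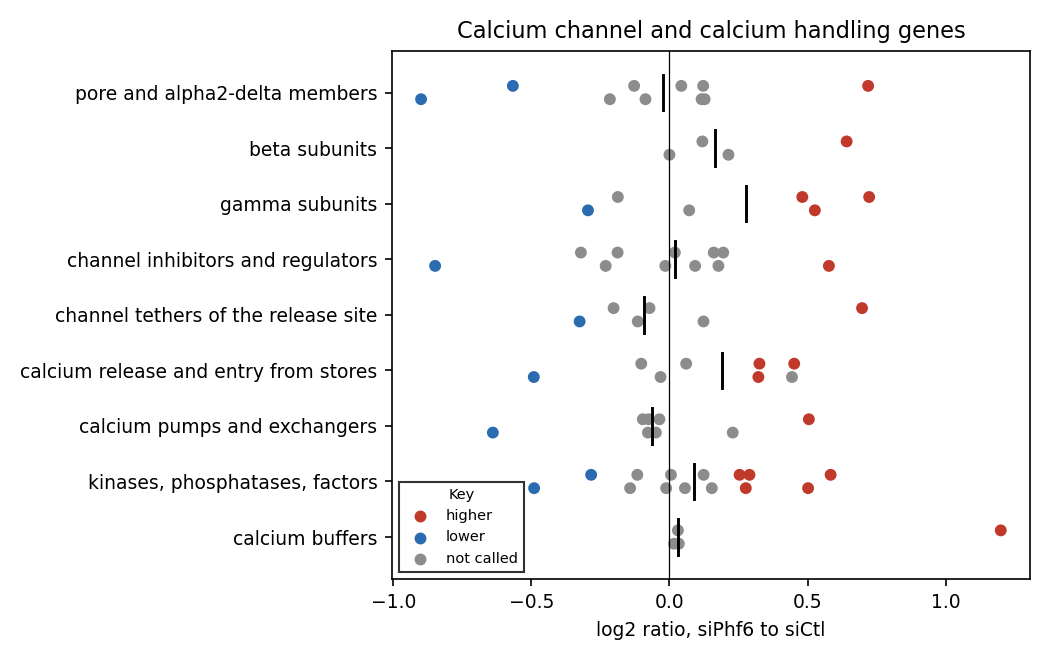
The horizontal axis is the log2 ratio of siPhf6 to siCtl of each compared gene in the channel and calcium lists (rows), coloured by call (red higher, blue lower, grey not called). Black bars are list medians, from -0.09 for the release site to 0.28 for the gamma genes, and every list but the beta genes and buffers holds calls on both sides of 0.

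Markers of several cell types moved between the same libraries, and in bulk RNA fewer cells of a type and less RNA per cell cannot be told apart. Calls are counted among the markers with enough reads to be compared, whereas each summed level takes in every marker of its list, compared or not. Of all compared genes, 13.4% were called higher and 12.4% lower. Of 12 markers of postmitotic neurons, 1 (Syt1) was lower and none higher, and their summed level was 3548 RPM in siCtl and 3645 in siPhf6. Of the 6 GABAergic markers compared, of 8 listed, 2 were lower (Lhx6 at -0.80 and Dlx1 at -0.58), and the 8 summed to 341 and 336 RPM. Of radial glia markers 5 of 6 compared were higher, and the 11 listed summed to 396 and 535 RPM. Of astrocyte markers 3 of 6 compared were higher, and the 8 listed summed to 384 and 531 RPM. Of the higher ones, Aqp4 (102 and 155 reads) reached the filter of 150 reads only in siPhf6, which left no room for a lower call. Of oligodendrocyte lineage markers 2 of 3 compared were higher, and the 7 listed summed to 75.4 and 96.3 RPM. Of the higher ones, Olig2 (79 and 153 reads) reached 150 reads only in siPhf6, so it could not have been called lower. All 3 compared genes on the list of intermediate progenitor markers (Btg2, Insm1 and Elavl4) were higher. Whether these genes mark intermediate progenitors alone was not tested. The 6 listed summed to 227 and 298 RPM. Most of that sum came from Elavl4 (112.5 and 141.9 RPM) and Btg2 (83.2 and 118.6 RPM), so it does not stand for the whole list. Eomes, with 9 (siCtl) and 20 (siPhf6) reads, was not compared. Both compared markers of dividing cells, Mki67 (120 and 250 reads) and Top2a (136 and 275 reads), were higher. Both reached 150 reads only in siPhf6, so the filter left no room for a lower call. Their calls are therefore no test against the share of all compared genes. The 8 listed, compared or not, summed to 34.4 and 69.0 RPM. No compared marker of these 5 progenitor and glial lists was called lower, but they did not all rise. Of those not called, Mbp (-0.31, -0.55 to -0.08), Sox2 (-0.22, -0.49 to 0.04), Gfap (-0.14, -0.36 to 0.07) and Gja1 (-0.02) had log2 ratios below 0. Aldoc (0.13) lay above 0. Neurog2, a listed marker of intermediate progenitors with too few reads to be compared, stood at 48 (siCtl) and 22 (siPhf6) reads, with a log2 ratio of -0.89 (-1.72 to -0.17).
Acta2, at 16.04 and 8.43 RPM (195 and 89 reads), was the 1 lower of 3 compared endothelial and mural markers. Acta2 reached 150 reads only in siCtl, so the filter left no room for a higher call. The 7 listed endothelial and mural markers summed to 71.2 and 58.1 RPM. Col1a1, at 4.28 and 14.6 RPM (52 and 154 reads), was the 1 compared fibroblast marker and was higher. Col1a1 reached 150 reads only in siPhf6, so the filter left no room for a lower call. The 6 listed fibroblast markers summed to 21.8 and 45.1 RPM. No marker of microglia (summed 4.36 and 6.06 RPM over 7) or of muscle (summed 11.9 and 8.71 RPM over 6) could be compared. C1qa, Cldn5 and Actc1 were at 0 in both libraries. The part of these shifts in the values of Cacna1g, Cacna1e and Cacna2d3 was not tested.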

How the data were processed

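Whole-read counts per gene were used as deposited. Reads had been aligned by the authors to mm10 (HISAT2), stripped of duplicates (samtools) and counted with HTSeq on GENCODE release M9. Tool versions are not given in the sources used here. Reads in no gene (25.3% in siCtl, 24.1% in siPhf6) and reads that HTSeq called ambiguous (1.99% and 2.04%) were left out of the totals. Identifiers without version were matched to GENCODE M21 (GRCm38, the assembly of mm10) for symbols, positions and lengths. Promoter windows came from RefSeq.

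With 1 library per arm, edgeR's quasi-likelihood test could not be run. Reads were compared by an exact binomial test (scipy 1.17.1) across all compared genes, with Benjamini-Hochberg adjustment, and the code was tested on simulated data. Alternatives used edgeR 4.0.16, DESeq2 1.42.0 and lowess trends (statsmodels 0.14.6, span 0.3). The members and lists were chosen with earlier results of these data known. All 10 members, all other subunits, Phf6 and, from each further calcium list, the called genes with the 2 largest ratios in each direction were named by rule. Markers were named as examples, and ratios between neighbouring levels added, after the values were seen.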

Additional observations from a re-analysis of the deposited data

How the results depend on the processing

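Cacna1e, Cacna1g and Cacna2d3 were the only channel genes called under 10 of the 11 alternatives, which changed the scaling (TMM, DESeq2 size factors, totals without mitochondrial and the 50 most abundant genes), the filter (at least 10 reads, or none), the added read (0.5), the ratio limit (0.5) or subtracted a trend on exon length, span or GC content. When cultures were taken to vary with a coefficient of variation of 0.1, 0 members were called higher and 1 lower, since the calls of Cacna2d3 and Cacna1e were lost; calls over all compared genes then numbered 165 higher and 86 lower, against 1359 and 1261, and at a ratio limit of 0.5 they numbered 562 and 495. The log2 ratio of Cacna1g lay between -0.95 and -0.87, that of Cacna1e between -0.58 and -0.50 and that of Cacna2d3 between 0.71 and 0.80. The ratio of Cacna1i turned to -0.0089 after the GC trend was subtracted, and the median of the members, between -0.05 and 0.02, was above 0 in 1 alternative. No paired analysis was possible because there is 1 library per arm, and for the same reason no library could be left out. Levels per length rose by up to 2.36 times (Cacna2d3) where the longest transcript replaced merged exons.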
